A study of Homo sapiens with 3 samples.

Results

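The genes described here repair double-strand breaks by homologous recombination, remove interstrand crosslinks through the Fanconi pathway, or signal stalled replication to the cell cycle; the mismatch repair genes MSH6 and PMS1 and the uracil glycosylase UNG complete the set. The list names 37 genes. Of these, 33 had at least 1 probe set annotated to that gene alone, out of 18239 genes measured in all, and the brightest probe set by mean log2 value stood for the gene. BRCA2, FANCA, FANCD2 and RBBP8 had none under their own symbol and are not analysed here. Expression was read on 3 Affymetrix arrays from GFP-SAS, a culture of SAS, the established human tongue carcinoma line, in which a short interfering RNA (siRNA) had been present at 10 nM for 24 h. The control library received the non-targeting siRNA siNT, and AKT1, a serine/threonine kinase of the PI3K pathway, was targeted with siAkt1-22 in 1 library and with siAkt1-58 in another. All 3 libraries thus carry an siRNA, and the labels say neither whether the libraries came from separate cultures nor whether GFP-SAS is a single clone. The comparison asks how the profile of these cells differs when AKT1 is knocked down.

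In homologous recombination the ends of a broken chromosome are trimmed back by nucleases, BRCA1 with BARD1 and then PALB2 with BRCA2 prepare the single strand for pairing with the sister copy, and helicases resolve the joined molecules. In the Fanconi pathway a core complex of many subunits places ubiquitin on FANCI and FANCD2 at a crosslink, with UBE2T as the conjugating enzyme and FANCL as the ligase. The kinase ATR with its partner ATRIP and the activator TOPBP1 senses single-stranded DNA and, through CLSPN, switches on CHEK1. Many of these genes are transcribed mainly in late G1 and S phase under E2F factors. Their level in a culture can therefore vary with the share of cycling cells, which was not measured here.

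Because many of these genes are known for shared cell cycle control, the start-site windows of the genes that read lowest are shown first. RefSeq windows (GRCh38.p14) of 250 bases before to 50 after a start were found for 33 of the 37 genes, in 47 windows. DNA2 and FANCI, which belong to the 6 genes lowest with both siRNAs, had no window in the table. Printed 5′ to 3′ on the gene's own strand, from 120 bases before the start to 30 after it, are the other genes of those 6, BLM (chr15:90717226-90717375, plus strand), RAD51AP1 (chr12:4538770-4538919, plus strand), FANCB (chrX:14873040-14873189, minus strand) and EXO1 (chr1:241848084-241848233, plus strand, the first of its 2 windows). FANCF (chr11:22625794-22625943, minus strand), the gene that read highest with both, is added for contrast and was chosen after its values were seen. Capitals mark matches to the E2F core or the CCAAT box on either strand.
BLM: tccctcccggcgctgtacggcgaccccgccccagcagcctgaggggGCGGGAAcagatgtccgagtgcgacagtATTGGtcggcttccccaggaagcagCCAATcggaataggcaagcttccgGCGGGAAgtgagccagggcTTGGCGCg
RAD51AP1: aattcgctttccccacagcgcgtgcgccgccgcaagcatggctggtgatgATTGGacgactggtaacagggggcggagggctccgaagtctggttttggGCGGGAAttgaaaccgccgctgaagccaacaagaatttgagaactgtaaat
FANCB: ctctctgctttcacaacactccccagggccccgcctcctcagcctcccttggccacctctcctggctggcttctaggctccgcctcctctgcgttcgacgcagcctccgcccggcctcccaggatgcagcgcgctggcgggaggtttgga
EXO1: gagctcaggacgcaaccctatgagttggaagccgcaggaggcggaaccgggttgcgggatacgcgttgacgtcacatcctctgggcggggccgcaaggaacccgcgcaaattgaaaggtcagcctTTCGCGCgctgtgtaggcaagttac
FANCF: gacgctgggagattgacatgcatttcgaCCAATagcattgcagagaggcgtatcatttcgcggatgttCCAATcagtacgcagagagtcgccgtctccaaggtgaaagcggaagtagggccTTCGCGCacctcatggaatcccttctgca
BLM held 3 E2F cores and 2 CCAAT boxes in this stretch, RAD51AP1 1 of each, EXO1 an E2F core just after the start, and FANCB neither. FANCF, which read higher with both siRNAs, also held an E2F core and 2 CCAAT boxes.

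For the whole set, 3 motifs were searched in the full windows on both strands. The E2F core was any of TTCCCGC, of TTGGCGC, of TTCGCGC and of TTGCCGC. The cell cycle homology region (CHR) was TTTGAA or else TTCGAA, and the CCAAT box was its own name. The reverse complement of the second E2F form shares letters with the CCAAT box, and such matches overlapped in PMS1 and UNG; E2F matches of both strands overlapped in TOPBP1 and UNG. An E2F core lay in 27 of the 47 windows (57.4%), against 13% of all 35116 windows and 18.1% of the 15117 windows of genes tested on the array. The CCAAT box lay in 25 windows (53.2%, against 34.6% of all windows and 34.5% of those of genes tested) and the CHR in 5 (10.6%, against 16.4% and 12.4%). Among windows of genes at least 2-fold lower with both siRNAs, described next, 7 of 10 held an E2F core, and among windows of the other measured genes 18 of 32 did (56.2%). Counted by gene, these were 6 of 7 (85.7%) and 13 of 22 (59.1%), beside 23.8% of the genes tested that had a window. The other motifs were rarer in windows of the genes at least 2-fold lower with both. The CCAAT box lay in 5 of 10 (50%) against 19 of 32 (59.4%), and the CHR in 0 of 10 against 5 of 32 (15.6%). None of these differences was tested. These counts describe letters in the windows and do not show that a factor binds there.

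**Figure D1:**
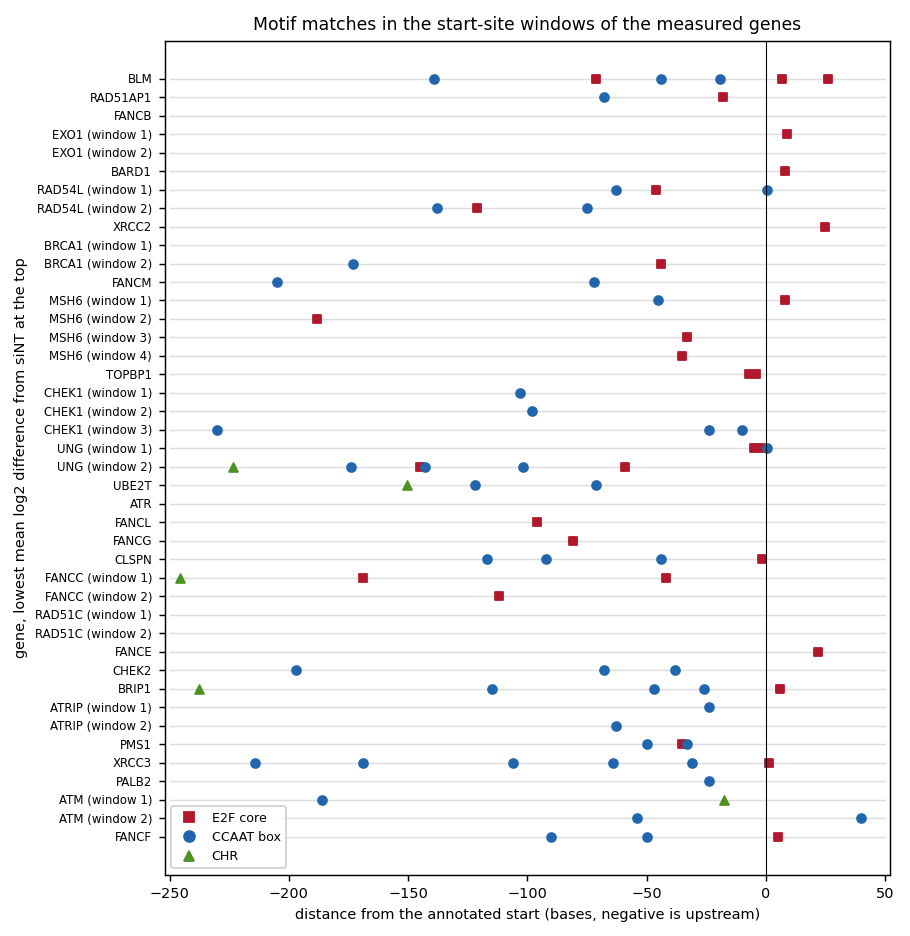
Positions of E2F core (squares), CCAAT box (circles) and CHR (triangles) matches in the start-site windows of the 29 measured genes that had one, with distance from the annotated start in bases on the horizontal axis and genes ordered from the lowest mean log2 difference from siNT (top) to the highest (bottom). E2F cores occur from BLM at the top to FANCF at the bottom, and FANCB, ATR and RAD51C have no match to any of the motifs.

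AKT1 itself read 6.75 with siNT, 3.67 with siAkt1-22 and 3.47 with siAkt1-58. Probe sets for spiked poly-A transcripts, added as controls, had a median log2 difference from siNT of -0.56 with siAkt1-22 and -0.01 with siAkt1-58, and the actin gene ACTB, named after its values were seen, was at -3.09 and 0.21. The hybridisation controls, at -0.04 and 0.08, and the control gene GAPDH, at -0.05 and 0.02, read near siNT in both libraries. The part of the poly-A and ACTB signals in the results was not tested. Epithelial markers were bright as the label implies, 6 of the 7 measured out of 10 listed (KRT5, KRT8, KRT18, CDH1, EPCAM, SFN) lying above the filter level in every library, while KRT14 lay below it. All 4 fibroblast markers and PTPRC, CD3E and CD14 lay below that level in all 3 libraries; CD68 read 6.33 to 7.14, and the endothelial PECAM1 and VWF each had 1 identical value in all 3. The summed log2 level of the 7 epithelial markers came to 67.1 for siNT, 67.5 for siAkt1-22 and 67.6 for siAkt1-58; that of the 4 fibroblast markers was 13.5, 13.6 and 13.4, of the 4 immune markers 15.7, 16.1 and 16.5, and of the 3 endothelial markers 12.2, 12.5 and 12.3.

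Most repair and checkpoint genes read lower with both AKT1 siRNAs than with siNT. Of the 32 whose mean log2 value reached the filter level of 3.93, 22 were below siNT with both siRNAs (ATR by a difference of only -0.0010 with siAkt1-58), and 9 were at least 2-fold lower with both: BRCA1, RAD51AP1, XRCC2, RAD54L, EXO1, DNA2, BLM, FANCB and FANCI. Over all 12779 genes tested, 21.4% were below siNT with both and 1.17% at least 2-fold lower with both. Genes exactly tied with siNT were counted on neither side but stayed in the total, which lowers the shares below and above siNT. The median log2 difference of the 32 genes was -0.50 with siAkt1-22 and -1.19 with siAkt1-58, and that of all genes was 0 with each. FANCF alone was above siNT with both (30.9% of all genes), and 0 of the 32 were at least 2-fold higher with both (0.736% of all genes).

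No gene passed a moderated test. With both siAkt1 libraries as a group against siNT, limma gave an adjusted p of 0.607 at best over all genes, and 0 of 12779 genes passed (0%), 0 of the 32 among them; 10 of the 32 had an unadjusted p under 0.05 by limma, all of them lower than siNT, against 7.47% of all genes. The model has 1 residual degree of freedom and its spread is the gap between the siRNAs, with the lone siNT library assumed to vary alike. Every difference below rests on that 1 siNT library, which both siRNA comparisons share, and in bulk RNA fewer cells that express a gene and less RNA per cell cannot be told apart.

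**Figure D2:**
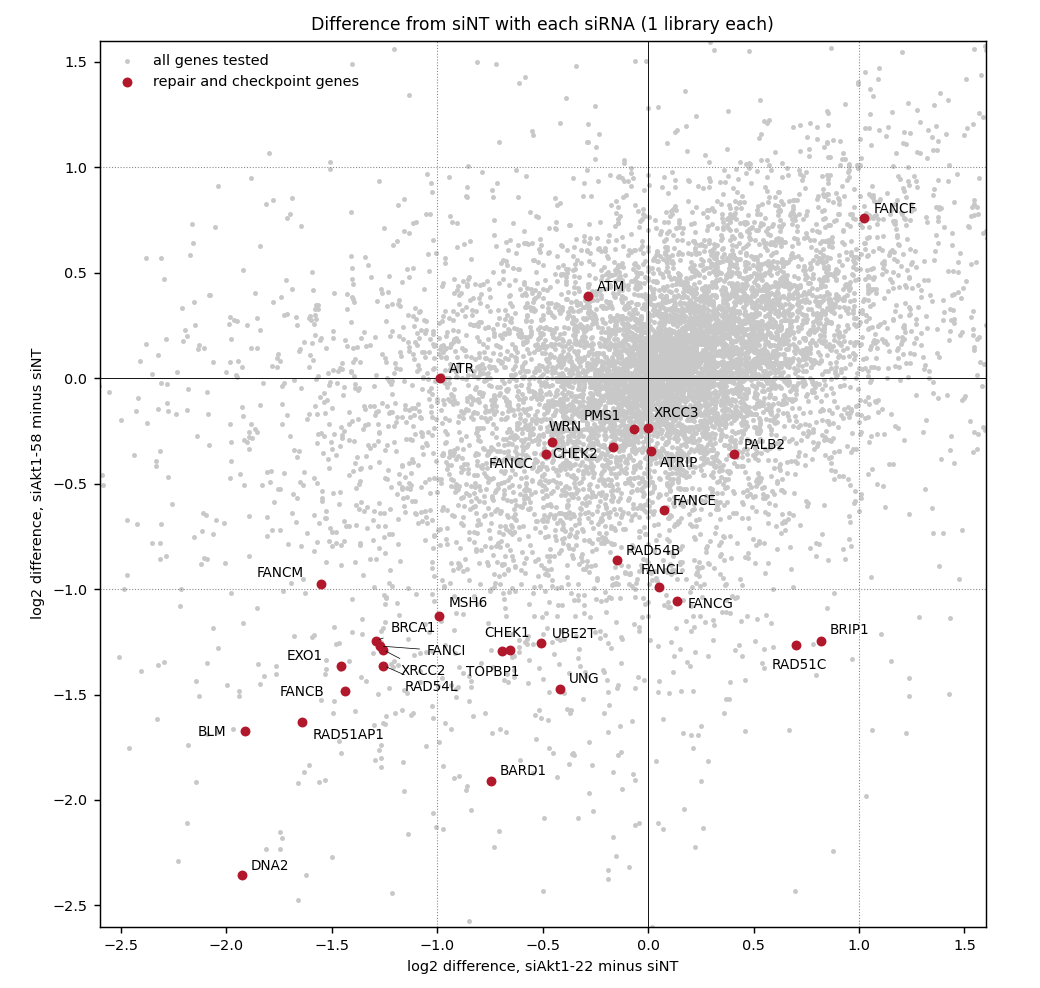
Log2 difference from siNT with siAkt1-22 (horizontal) and siAkt1-58 (vertical), 1 library each, for all 12779 genes tested (grey) and the 32 repair and checkpoint genes (red, named); dotted lines mark 2-fold, and 219 genes outside the range of -2.6 to 1.6 are not drawn. The 9 red points lie in the lower left corner beyond 2-fold on both axes, RAD51C and BRIP1 lie at the lower right, and FANCF is the red point at the upper right.

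Among the BRCA and recombination genes, RAD51AP1, a DNA-binding protein that promotes strand pairing, read 9.34 with siNT, 7.70 with siAkt1-22 and 7.71 with siAkt1-58. It was thus 3.12-fold and 3.10-fold lower, a mean log2 difference of -1.64 ± 0.0063 (SD, n = 2), and had the smallest unadjusted limma p of all genes tested (rank 1; adjusted p = 0.607). All 4 of its probe sets were lower, from -1.52 to -1.69 with siAkt1-22 and from -1.57 to -1.78 with siAkt1-58. The SD given for RAD51AP1, and for RAD54L below, is the spread between the siRNAs and holds no variation of the lone siNT library. BRCA1, the ubiquitin ligase that promotes end resection, read 7.38 with siNT, 6.09 with siAkt1-22 and 6.14 with siAkt1-58, or 2.45-fold and 2.37-fold lower. Its other probe sets above the filter level were lower by smaller amounts: -1.09 and -0.92, -0.57 and -0.59, and -0.17 with each. BARD1, the partner of BRCA1 in that ligase, went 6.15, 5.40 and 4.24 in the same order and was lower by -0.75 and -1.91. Both partners in the ligase were therefore below siNT with each siRNA, BRCA1 by near-equal amounts and BARD1 more with siAkt1-58.

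XRCC2, RAD51C and XRCC3, related proteins that work in shared complexes during recombination, did not move as a group. XRCC2 read 6.57 with siNT, 5.31 with siAkt1-22 and 5.28 with siAkt1-58, at least 2-fold lower with both, though a dimmer probe set gave 0 and -0.21. RAD51C, which joins XRCC3 in one complex and XRCC2 in another, read 8.90 with siNT, 9.61 with siAkt1-22 and 7.64 with siAkt1-58: it was above siNT with one siRNA and below it with the other. Its other bright probe sets did the same (0.77 and -1.28, 0.44 and -0.80), and the last one was dim and equal in all 3 libraries. XRCC3 read 5.28, 5.28 and 5.04, with siNT and siAkt1-22 exactly tied.

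The strand-exchange motors were lower to different degrees. RAD54L, a DNA translocase of strand exchange, read 5.75 with siNT, 4.50 with siAkt1-22 and 4.39 with siAkt1-58. Its mean log2 difference was -1.31 ± 0.076 (SD, n = 2). RAD54B, its relative, read 7.47, 7.32 and 6.61 in its brightest probe set (-0.15 and -0.86) and was lower by -0.70 and -0.97 in a dimmer one. PALB2, the bridge between BRCA1 and BRCA2, read 7.21 with siNT, 7.62 with siAkt1-22 and 6.85 with siAkt1-58, on both sides of siNT. With siAkt1-58, all 9 measured genes of this recombination group were below siNT (37% of all genes), 6 of them at least 2-fold (3.58%).

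**Figure D3:**
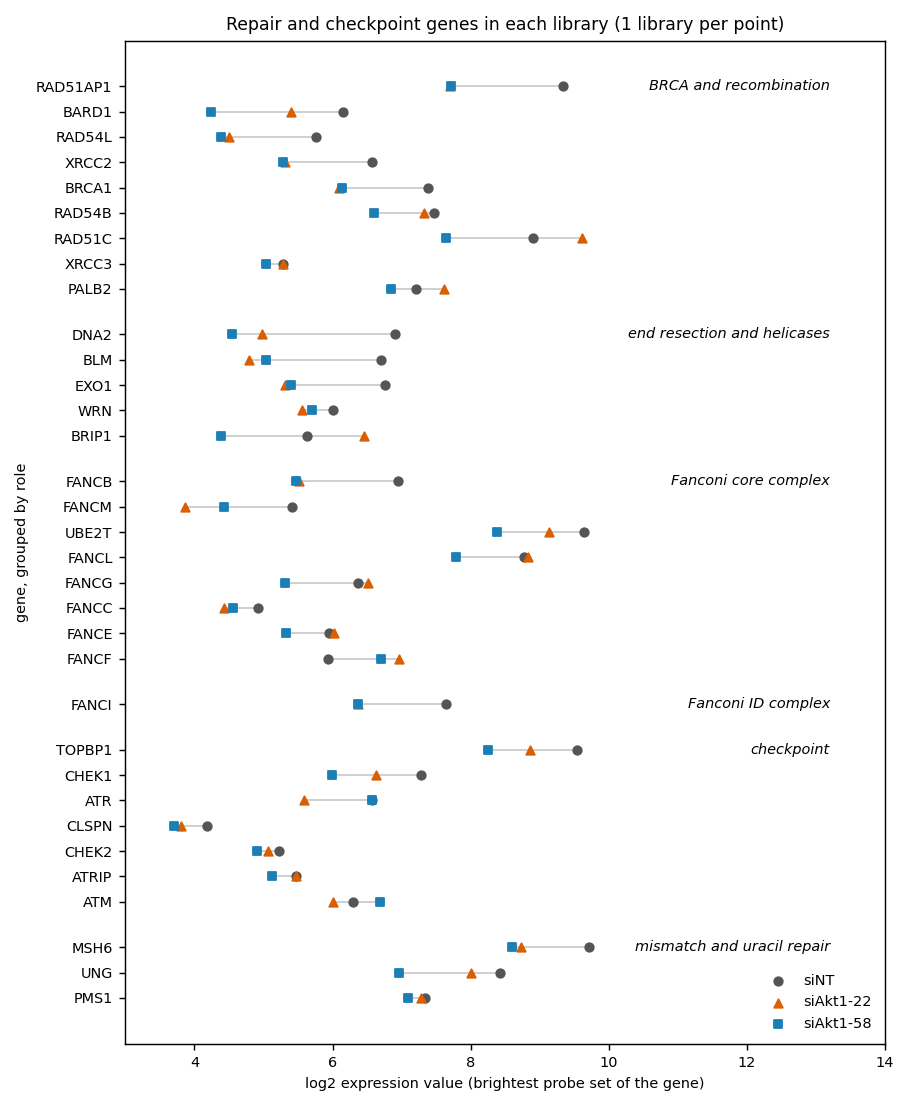
Log2 expression value of the brightest probe set of each of the 33 measured genes with siNT (circles), siAkt1-22 (triangles) and siAkt1-58 (squares), 1 library per point, grouped by role; values of different genes are not comparable as levels. The siNT point is the rightmost for most genes, for FANCF it is the leftmost, and for RAD51C, BRIP1 and PALB2 it lies between the siRNAs.

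End resection and helicase genes held the largest differences from siNT in the set. DNA2, a nuclease and helicase of long-range resection, read 6.90 with siNT, 4.98 with siAkt1-22 and 4.55 with siAkt1-58, 3.81-fold and 5.12-fold lower. Its other probe set, with a mean below the filter level, gave -1.21 and -1.23. EXO1, the exonuclease of the parallel resection route, read 6.77, 5.31 and 5.40, or 2.74-fold and 2.57-fold lower. BLM, the Bloom syndrome helicase that works with DNA2 and dissolves joint molecules, read 6.70, 4.79 and 5.03, or 3.77-fold and 3.19-fold lower. The siNT library stood above both others for each of these genes. WRN, the Werner syndrome helicase of the same family as BLM, differed less, at 6.01 with siNT, 5.55 with siAkt1-22 and 5.70 with siAkt1-58.

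BRIP1, a helicase that binds BRCA1, behaved like RAD51C: it read 5.63 with siNT, 6.45 with siAkt1-22 and 4.39 with siAkt1-58. It was 1.76-fold higher with the first siRNA and 2.37-fold lower with the second, and its dimmer probe set showed the same signs at 0.21 and -0.82. The gap between the siRNAs, -2.06 for BRIP1 and -1.97 for RAD51C (siAkt1-58 minus siAkt1-22), was the widest in the set.

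Within the Fanconi core complex the subunits differed in direction. FANCB, which forms the catalytic module with FANCL, read 6.95 with siNT, 5.52 with siAkt1-22 and 5.47 with siAkt1-58, 2.71-fold and 2.79-fold lower in its only probe set. FANCL, the ligase, read 8.78, 8.83 and 7.79, equal to siNT within 0.05 with siAkt1-22 and -0.99 with siAkt1-58. A further FANCL probe set gave 0.08 and -1.47, and the dimmest one 0 and 0.13. FANCM, the translocase that anchors the complex on DNA, read 5.41 with siNT, 3.86 with siAkt1-22 and 4.43 with siAkt1-58, lower by -1.55 and -0.98, with -0.60 and -0.43 in a probe set below the filter level. UBE2T, the conjugating enzyme, read 9.64, 9.13 and 8.38, so it was lower by -0.51 and -1.26. These genes shared a value below siNT with siAkt1-58, but only FANCB was beyond 2-fold with both.

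The remaining core subunits split further. FANCG read 6.37 with siNT, 6.51 with siAkt1-22 and 5.32 with siAkt1-58, lower than siNT only in the siAkt1-58 library (-1.05). FANCE, which contacts FANCD2, read 5.95, 6.03 and 5.33, the same pattern at smaller size. A dimmer FANCE probe set was below siNT with both (-0.18 and -0.62), and another, below the filter level, gave 0.15 and -0.11. FANCC, the partner of FANCE, read 4.92, 4.43 and 4.56. FANCF, the adaptor subunit, ran the other way: it read 5.94 with siNT, 6.96 with siAkt1-22 and 6.70 with siAkt1-58, 2.03-fold and 1.69-fold higher. A nearly as bright FANCF probe set was higher by 1.20 and 0.87, whereas a dimmer one was at 0.05 and 0. Of the 8 core genes measured, UBE2T counted among them, 4 were below siNT with both siRNAs (21.4% of all genes), 3 were above it with siAkt1-22 and below it with siAkt1-58 (13.5%), and FANCF was above it with both (30.9%).

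FANCI, the substrate of the complex, read 7.64 with siNT, 6.37 with siAkt1-22 and 6.37 with siAkt1-58. The values with the siRNAs differed by 0.0022, and each was lower than siNT by -1.27 (rank 4 of the genes tested by unadjusted limma p; adjusted p = 0.607). A nearly as bright FANCI probe set gave -1.98 and -1.63, and the dimmest -0.76 and -0.59, so all 3 probe sets were below siNT with both siRNAs. Its partner FANCD2 is not analysed here.

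Of the 6 checkpoint genes tested, 4 were below siNT with both siRNAs (21.4% of all genes) and 0 at least 2-fold lower with both (1.17%). TOPBP1, the activator of ATR, read 9.55 with siNT, 8.85 with siAkt1-22 and 8.25 with siAkt1-58, and its other probe set was also lower (-0.43 and -0.96). CHEK1, the effector kinase, read 7.28, 6.62 and 5.99, lower by -0.65 and -1.29. All 6 CHEK1 probe sets were lower with both, from -0.40 to -0.79 with siAkt1-22 and from -0.72 to -1.86 with siAkt1-58, and each was lower with siAkt1-58 than with siAkt1-22. CLSPN, the adaptor between ATR and CHEK1, read 4.19, 3.81 and 3.70; its mean was under the filter level, so it was not tested. The activator and effector of this arm were thus below siNT with both siRNAs and lowest with siAkt1-58.

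The kinases at the top of the pathway did not share that order. ATR read 6.57 with siNT, 5.58 with siAkt1-22 and 6.57 with siAkt1-58, lower by -0.99 in the siAkt1-22 library and at siNT level in the other; it has 1 probe set. ATRIP, its obligate partner, read 5.47, 5.48 and 5.12. ATM, the kinase that answers double-strand breaks, read 6.29 with siNT, 6.01 with siAkt1-22 and 6.68 with siAkt1-58, and its other 4 probe sets lay below the filter level with differences from 0 to 0.25. CHEK2, the effector of ATM, read 5.23, 5.06 and 4.90, lower by -0.17 and -0.33, and by -0.04 and -0.77 in a probe set of near-equal brightness. ATM was the only one of the 32 genes below siNT with siAkt1-22 and above it with siAkt1-58 (12.1% of all genes).

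In base mismatch and uracil repair, MSH6, a subunit of the mismatch sensor, read 9.72 with siNT, 8.73 with siAkt1-22 and 8.59 with siAkt1-58. At -0.99 and -1.13 it was the nearest gene outside the 2-fold limit, and its second probe set passed it at -1.02 and -1.09. The nearest gene inside was BRCA1 at -1.29 and -1.24. UNG, which removes uracil from DNA, read 8.43, 8.01 and 6.96, lower by -0.42 and -1.47, and its other probe set gave -0.26 and -1.07. PMS1, a mismatch repair factor of the MutL family, read 7.34, 7.28 and 7.10; its 7 probe sets lay between -0.13 and 0.20 with siAkt1-22 and between -0.56 and -0.05 with siAkt1-58.

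**Figure D4:**
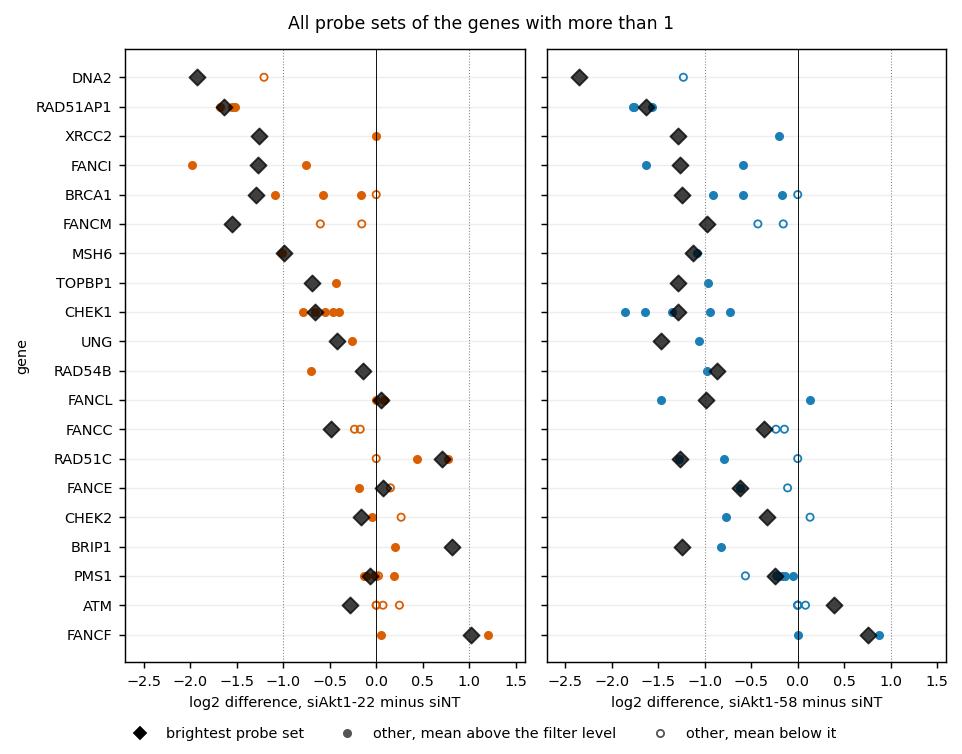
Log2 difference from siNT of every probe set of the 20 measured genes with more than 1, with siAkt1-22 (left) and siAkt1-58 (right); diamonds are the brightest probe set, filled circles other probe sets with a mean above the filter level and open circles those below it. The probe sets of RAD51AP1, CHEK1 and MSH6 lie on one side of 0 in both panels, those of RAD51C and BRIP1 lie at or above 0 on the left and at or below it on the right, and BRCA1 and FANCF include probe sets close to 0.

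The 33 genes were read by 79 probe sets, and 13 genes had only 1. For the 9 genes at least 2-fold lower with both, 9 further probe sets lay above the filter level: 8 of these lay below siNT with each siRNA and 4 at least 2-fold lower, belonging to RAD51AP1 and FANCI. Probe sets whose name ends in x_at, such as the brightest ones of BRCA1, XRCC2, FANCE, CHEK1 and CHEK2, can also bind related transcripts. Averaging all probe sets of a gene left 8 genes at least 2-fold lower with both, 7 of them the same; BRCA1 (-0.62 and -0.58) and XRCC2 (-0.63 and -0.75) dropped out and MSH6 (-1.0 and -1.11) came in.

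The siRNAs gave unequal counts. With siAkt1-22 alone, 10 of the 32 reached 2-fold below siNT (5.97% of all genes) and 1 was at least 2-fold higher (4.4%). With siAkt1-58 alone, 18 were at least 2-fold lower (3.58%) and 0 higher (1.54%), and 30 of 32 were below siNT (37%). The direction of 7 genes, RAD51C, BRIP1, PALB2, FANCG, FANCE, FANCL and ATRIP, was above siNT with siAkt1-22 and below with siAkt1-58 (13.5% of all genes), in FANCL, ATRIP and FANCE by under 0.08 on the upper side.

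Set directly against each other, siAkt1-58 gave 6 of the 32 genes at least 2-fold lower than siAkt1-22 (5% of all genes) and 0 at least 2-fold higher (5.28%). The 6 were BRIP1 (4.18-fold), RAD51C (3.92-fold), FANCG (2.28-fold), BARD1 (2.24-fold), UNG (2.08-fold) and FANCL (2.06-fold). ATR, at 0.99, was the gene with the largest difference in the opposite direction. With 1 library per siRNA this difference has no replicate check and was not tested.

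For the 9 genes at least 2-fold lower with both siRNAs, the size of the gap between siAkt1-58 and siAkt1-22 had a median of 0.047, with a range from 0.0022 for FANCI to 0.43 for DNA2, and for the other 23 a median of 0.67. These values are a description only, since among genes with a like mean difference, a limit that both siRNAs must pass favours a small gap. Over the 150 genes of the whole array that were at least 2-fold lower with both, the median gap was 0.38, and over all genes tested 0.22, which DNA2 and BLM (0.24) exceeded. Exact ties occurred: 14 of the 79 probe sets of these genes were exactly tied in at least 1 library pair, and 3 of these held a single value throughout.

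Other genes of the same pathways had medians nearer to siNT than the 32 genes, though both lists were chosen with earlier results of these data known. The contrast therefore depends on how the lists were drawn, and it was not tested. Of 66 further recombination, Fanconi and checkpoint genes listed, 61 were tested, and the medians were 0 and -0.25. With both siRNAs, 4 were at least 2-fold lower (6.56%, against 1.17% of all genes) and 0 at least 2-fold higher (0.736% of all genes). Below siNT with both were 26 (42.6%, against 21.4% of all genes), and 11 were above it with both (30.9% of all genes). The largest difference with both was that of USP1, the enzyme that takes ubiquitin off FANCI and FANCD2, at 9.92 with siNT, 7.0 with siAkt1-22 and 8.30 with siAkt1-58 (-2.92 and -1.62). NBN, of the complex that first binds a break, was lower by -1.85 and -1.35, FIGNL1, an ATPase that acts in recombination, by -1.21 and -2.44, and GEN1, which cuts recombination junctions, by -1.21 and -1.37. CDC25A, the phosphatase that CHEK1 targets, read -0.97 and -1.84, and RFWD3, a ubiquitin ligase of crosslink repair, -0.97 and -0.99. On the other side the differences were smaller: the checkpoint clamp loader RAD17 was at 0.54 with each, the nuclease partner ERCC1 at 0.78 and 0.49, the core complex protein FAAP20 at 0.40 and 0.59, the helicase FBH1 at 0.40 and 0.63, MLH3 at 0.62 and 0.35 and ABRAXAS1 at 0.25 with each.

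Repair routes that do not use recombination differed from the 32 genes in their counts, but base excision genes read much like the further recombination genes above. Below siNT with both were 4 end-joining genes (36.4%), 6 base excision genes (37.5%) and 0 nucleotide excision genes, against 21.4% of all genes. Of 11 end-joining genes tested, 0 were at least 2-fold lower with both (1.17% of all genes), with medians of 0 and -0.16. The kinase subunit PRKDC was at -0.97 and -0.36 and NHEJ1 at -1.13 and -0.29. Of 16 base excision genes 1 was at least 2-fold lower with both (6.25%), the strand-break sensor PARP1 at -1.42 and -1.34, with list medians of 0.03 and -0.23. Of 14 nucleotide excision genes 0 were lower by that limit and 1 was higher (0.736% of all genes), CETN2 at 1.15 and 1.26, with medians of 0.50 and 0.08. The difference between these lists and the 32 genes was not tested, and all of them were chosen with earlier results of these data known.

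Of 15 proliferation genes (MKI67, PCNA, the MCM helicase subunits, cyclins and others), 11 lay below siNT with each siRNA (21.4% of all genes) and 15 of 15 did so with siAkt1-58 (37%), with medians of -0.50 with siAkt1-22 and -1.42 with siAkt1-58; 2 were at least 2-fold lower with both (1.17%), MCM6 (-2.18 and -1.74) and CCNE2 (-1.34 and -4.50). The other 4 were above siNT with siAkt1-22 and below it with siAkt1-58: MCM2 (0.47 and -0.15), MCM5 (0.41 and -0.33), TYMS (0.37 and -4.09) and MCM7 (0.15 and -1.48). The repair genes' medians of -0.50 and -1.19 had the same order between the siRNAs. The part of the share of cycling cells in the values of the repair genes was not tested.

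**Figure D5:**
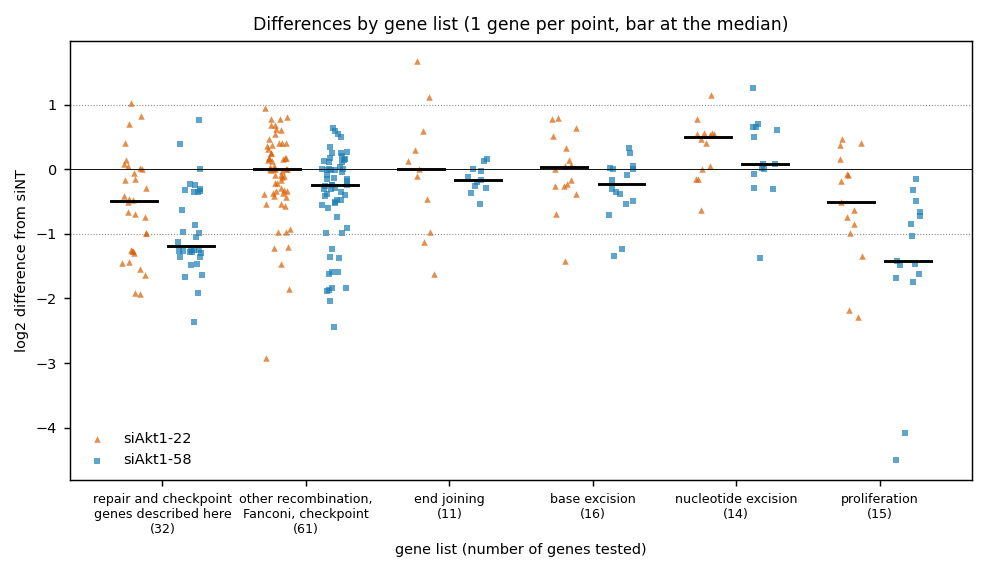
Log2 difference from siNT with siAkt1-22 (triangles) and siAkt1-58 (squares) for each gene tested in the list described here and in 5 comparison lists, with a bar at each median. The medians of the repair and checkpoint genes (-0.50 and -1.19) lie near those of the proliferation genes (-0.50 and -1.42), and the medians of the other 4 lists lie between -0.25 and 0.50.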

How the data were processed

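Values were taken from the deposited table of log2 expression per probe set, which per the submitters' processing notes the authors made with RMA, a method that corrects background, normalizes by quantiles and summarizes probes; a software version and a genome build were not given in the sources used here. The log2 scale was read from the values, which run from 2.20 to 13.4 with medians of 4.58 to 4.59. Of 49386 probe sets, 45253 carried 1 gene in the platform annotation; symbols were updated through Entrez identifiers for 45172. Left out were 1327 probe sets shared by several genes, 2713 without an entry and 93 controls. The brightest probe set stood for its gene, and genes with a mean under the 30th percentile (log2 3.93) were not tested, leaving 12779 of 18239.

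Both siAkt1 libraries share a genotype in the labels and formed one group. Genes were counted at a log2 difference of at least 1, and the group was also set against siNT in a limma fit (version 3.58.1, R 4.3.3; lmFit and eBayes) whose two-sided p-values were adjusted by Benjamini-Hochberg over every gene tested, at 0.05. The script was tested on simulated data. The number of arrays limits the precision, and since no label speaks of separate cultures, p-values reflect only how these samples spread, which may be technical. All members may be named; other pathway genes were named by rank (6 per side, 2 per comparison list), and ACTB, MCM2, MCM5, MCM7 and TYMS after their values were seen. The members and lists were chosen with earlier results of these data known. Alternatives were averaged probe sets, median centring, quantile normalization, other filters, 1.5-fold, other eBayes settings and each siAkt1 library left out.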

Additional observations from a re-analysis of the deposited data

How the results depend on the processing

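The count of 9 genes at least 2-fold lower with both siRNAs was 8 with averaged probe sets or a filter at the 50th percentile and 9 with median centring, quantile normalization or no filter, and both medians stayed below 0 under each of these. A limit of 1.5-fold gave 14 genes lower and 1 higher with both, and 12 lower and 2 higher with siAkt1-58 than with siAkt1-22. The share of all genes at the 1.5-fold limit was not counted, so these larger counts have no background to be read against. With only siAkt1-22 kept, 10 genes were at least 2-fold lower (5.97% of all genes) and 1 at least 2-fold higher (4.4%). In that library 23 of the 32 were below siNT, beside 4558 of all 12779 genes. With only siAkt1-58 kept, 18 were at least 2-fold lower (3.58% of all genes), 0 at least 2-fold higher (1.54%) and 30 below siNT (37%). limma passed 0 of the genes under every setting tried, against 10 with an unadjusted p under 0.05 as reported. No paired analysis was possible because 1 siNT library stands beside 2 siAkt1 libraries, and the labels also give no replicate numbers. limma was not run with a library left out, which leaves no residual degrees of freedom, and the lone siNT library could not be left out. CLSPN, at a mean under the filter level, was not tested.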
